A study of Mus musculus with 6 samples.

Results

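The genes described here control the start of blood clotting, its restraint and the making of plasmin in the embryonic heart. They are F3, Tfpi, Tfpi2, Thbd, Procr, Plat, Plau, Plaur and Serpine2, 9 genes in all, beside 21798 genes tested on the arrays. The list was chosen on the difference between null and wild-type signal in these same arrays, so that difference is given for each gene as a description and no test is drawn from it. They are read by 12 probes, matched to symbols by RefSeq accession. Of the 9 genes, 8 were bright enough (well above background on 3 or more of 6 arrays) and entered the fit over all genes, and Tfpi2 did not.

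Single-colour Agilent arrays measured total RNA of hearts dissected from mouse embryos at embryonic day 9.5, taken with the pharyngeal mesoderm and endoderm lying beneath the heart tube. The groups are wild type and Arid3b-null, with 3 pools of 4 embryos each. Arid3b encodes a DNA-binding protein of the AT-rich interaction domain family. The strain, the allele and the sex of the embryos are not given in the sources used here. Because each pool holds mixed tissue, fewer cells of a type and less RNA per cell cannot be told apart. Wild-type arrays occupied 1 place on each of the 3 slides and null arrays another, so place and genotype cannot be told apart.

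Tissue factor, the product of F3, is the membrane protein that binds circulating factor VII and begins clotting. Tfpi encodes the Kunitz-type inhibitor of that complex, and Thbd (thrombomodulin) and Procr (the endothelial protein C receptor) turn thrombin toward activating protein C, which slows clotting. Plat and Plau encode the tissue-type and urokinase-type activators that cut plasminogen into plasmin, Plaur encodes the urokinase receptor, and the serpin Serpine2 (protease nexin 1) inhibits thrombin and both activators. In the mouse conceptus, trophoblast giant cells are a known site of Procr and Thbd, and in vessels all of Tfpi, Thbd, Procr and Plat are known from endothelium.

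Across the arrays, 63.1% to 72.2% of the 43020 spots rose well above background and 0 saturated. Both ends lay on slide 3, with null pool 3 lowest and wild-type pool 3 highest. Their 75th percentiles before scaling, 9.02 and 10.16 in log2 units, were also the lowest and highest of all arrays. Arid3b itself fell by 2.65 log2 units (SE 0.26, 6.27-fold, limma adjusted p = 0.00194). The sources used here do not say which part of the gene was deleted, or whether the probe lies in it. Of the genes tested, 10.5% passed a limma adjusted p under 0.05, 6.64% higher and 3.81% lower in the null pools, and for 32.9% the groups did not overlap. With each array scaled to its median instead of its 75th percentile, 1104 genes were called higher and 1399 lower, against 1447 and 831, and the median change of all genes moved from 0.03 to -0.11. The labelled tissue carried its markers: all 9 cardiomyocyte markers were above background in each pool, and their summed signal ran from 1400 to 1623 times the array's 75th percentile in wild type and from 1462 to 1852 in null pools. Null pool 3 stood apart in placental transcripts. Summed over the 12 trophoblast and placental markers with a probe, signal was 0.444 to 0.616 in the wild-type pools but 0.385, 0.979 and 32.3 in null pools 1, 2 and 3. Most of it came from the placental lactogen Prl3d1, whose log2 signal, relative to the 75th percentile, was 4.78 in null pool 3 against -3.30 to -2.99 in wild type. Not all placental markers did the same. Prl4a1 read 1.95 in null pool 3 against -6.50 to -4.70 in wild type, and Plac1 read -0.59 there against -2.47 to -1.72. The placental lactogen Prl3b1, above background on all 6 arrays, read -2.97 in null pool 3, inside its wild-type range. Prl7d1 was detected only in null pool 3, Ctsj only in null pool 2, and Prl6a1 only in wild-type pools 1 and 3. The other 5 of the 12, including the spongiotrophoblast gene Tpbpa, were well above background on no array. Of the 4 trophoblast markers bright enough to test, 0 passed limma's test and 0 had an unadjusted p under 0.05. Values for the clotting genes are therefore given with and without null pool 3. All levels below are log2 signal on that scale, and a change is the null mean minus the wild-type mean with its standard error (SE) from the pools.

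Tissue factor and its inhibitor were the members whose null pools all lay above all wild-type pools. On its brighter probe of 2, F3 read -1.25, -1.52 and -1.76 in wild-type pools 1, 2 and 3, and -0.36, -0.19 and -0.38 in null pools 1, 2 and 3. The null pools lay close together and well clear of the wild-type pools. Means were -1.51 ± 0.25 in wild type and -0.31 ± 0.11 in null (SD, n = 3), a change of 1.20 (SE 0.16), which is 2.30-fold. Within slides 1, 2 and 3 the null array exceeded its wild-type neighbour by 0.89, 1.33 and 1.38. Without null pool 3, the pool rich in placental transcripts, the change was 1.24, about as large as with it. The dimmer probe read -5.78, -5.77 and -5.38 in wild type and -4.48, -4.85 and -5.30 in null pools. Its groups also did not overlap, but the gap on slide 3 was only 0.08 and the change 0.76 (SE 0.27).

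Tfpi was measured by 3 probes, and on each of them every null pool exceeded every wild-type pool. The brightest probe read 1.32, 1.05 and 0.79 in wild-type pools 1, 2 and 3, and 1.34, 2.01 and 3.11 in null pools 1, 2 and 3. Null pool 1 sat barely above the highest wild-type pool and null pool 3 far above the rest. The means were 1.05 ± 0.26 and 2.15 ± 0.89 (SD, n = 3), a change of 1.10 (SE 0.54) or 2.15-fold. A second probe on the same transcript accession gave 1.08 (SE 0.33), from -0.49, -0.63 and -0.51 to 0.09, 0.34 and 1.18. The probe on the other Tfpi transcript accession gave 1.14 (SE 0.39), from -1.23, -1.53 and -1.67 to -0.93, -0.42 and 0.35. The probes thus gave like changes, and on all of them the null pools stood in the order 1, 2, 3. The placental marker sum stood in that order too. So did the cardiomyocyte sum (1462, 1835 and 1852) and the macrophage sum (2.54, 4.23 and 5.40), but not those of the other marker lists. The brightest genes weigh most in such sums. As the mean log2 shift of the listed genes from wild type, the macrophage list did not keep that order (0.29, 0.50 and 0.40). The cardiomyocyte list did (-0.14, 0.21 and 0.22). Without null pool 3 the change of the brightest probe was 0.62, and 0.76 and 0.80 on the others, smaller than with it but still above 0. The part of placental RNA in the Tfpi values was not tested.

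**Figure D1:**
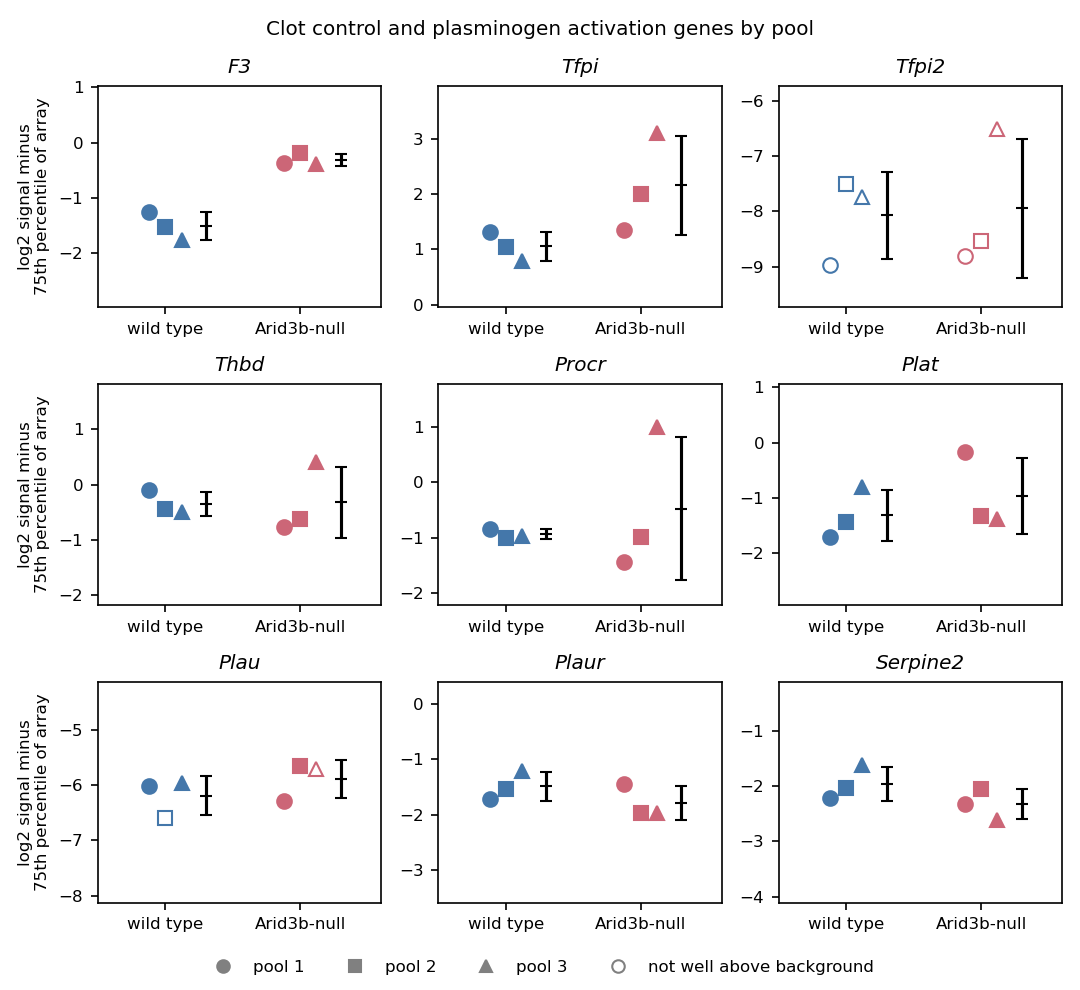
Each panel plots 1 gene, with the log2 signal relative to the array's 75th percentile on the vertical axis (each panel spans 4 log2 units) and the groups side by side. Symbols are single pools, open where the probe was not well above background, and the bar is mean ± SD over 3 pools. F3 and Tfpi separate the groups, Procr, Thbd and Tfpi are highest in null pool 3, and Plat is highest in null pool 1.

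Because F3 and Tfpi were the members that separated the groups, and Procr shared with Tfpi its height in null pool 3, the 250 bases before their RefSeq starts (build GRCm38.p6) are shown, with 2 starts for Tfpi. They lie at chr3:121723287-121723536 on the plus strand for F3, chr2:155750967-155751216 on the plus strand for Procr, and chr2:84474175-84474424 and chr2:84476760-84477009 on the minus strand for Tfpi. Capitals mark matches on either strand to the AP-1 site TGANTCA, the GC box GGGCGG, the EGR site GCGNGGGCG, the HIF core ACGTG or TATAAA.
F3: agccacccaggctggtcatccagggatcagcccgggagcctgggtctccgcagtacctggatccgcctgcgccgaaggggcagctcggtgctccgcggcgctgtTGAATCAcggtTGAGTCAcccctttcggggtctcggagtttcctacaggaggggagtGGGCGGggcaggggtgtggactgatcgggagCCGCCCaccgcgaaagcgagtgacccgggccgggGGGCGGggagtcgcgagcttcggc
Tfpi start A: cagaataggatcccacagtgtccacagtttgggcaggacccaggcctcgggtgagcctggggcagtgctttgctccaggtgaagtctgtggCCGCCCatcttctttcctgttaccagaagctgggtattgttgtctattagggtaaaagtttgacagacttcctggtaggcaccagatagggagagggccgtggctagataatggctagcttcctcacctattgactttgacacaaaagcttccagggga
Tfpi start B: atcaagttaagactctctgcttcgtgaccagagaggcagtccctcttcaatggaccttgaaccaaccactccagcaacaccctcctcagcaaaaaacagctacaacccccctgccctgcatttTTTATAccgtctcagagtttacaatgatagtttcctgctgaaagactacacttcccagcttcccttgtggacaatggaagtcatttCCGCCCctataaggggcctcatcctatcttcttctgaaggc
Procr: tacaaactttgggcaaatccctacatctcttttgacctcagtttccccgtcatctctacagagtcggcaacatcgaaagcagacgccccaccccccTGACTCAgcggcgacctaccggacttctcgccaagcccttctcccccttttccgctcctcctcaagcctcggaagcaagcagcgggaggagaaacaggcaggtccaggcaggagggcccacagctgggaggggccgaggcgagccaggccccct

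The F3 window was 70.0% G and C, against a median of 52.4% over 32817 windows of all genes, and held 3 GC boxes and a pair of AP-1 matches that began 146 and 135 bases before the start. The Procr window had an AP-1 match that began 154 bases before the start and no GC box. Each Tfpi window had 1 GC box and no AP-1 match, and only start B held TATAAA. Windows were found for 6 of the 9 genes (F3, Tfpi, Tfpi2, Procr, Plaur and Serpine2), and those of Thbd, Plat and Plau were not matched. Of the 6 genes, 4 had an AP-1 match (F3, Procr, Plaur and Tfpi2), a motif present in 6.75% of all windows. A GC box stood in 5 of 6 genes and in 32.7% of windows, and an EGR match in 3 of 6 genes (Serpine2, Plaur and Tfpi2, overlapping a GC box in each) and in 4.7% of windows. The HIF core was in 1 of 6 genes, Tfpi2, and in 16.6% of windows, and TATAAA in 1 of 6 and in 12.4%. Those counts are by gene, while the shares are by window. By window, AP-1 matches stood in 4 of 9, GC boxes in 6 of 9 and EGR matches in 3 of 9. The HIF core and TATAAA each stood in 1 of 9. The genes differ in base content and some have several starts, and a match describes letters only.

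Thbd and Procr, which act together on protein C, were set by null pool 3. Procr read -0.84, -1.01 and -0.97 in wild-type pools 1, 2 and 3, and -1.44, -0.998 and 0.995 in null pools 1, 2 and 3. The wild-type pools lay close together, null pool 1 was below them and null pool 3 far above. The means were -0.94 ± 0.09 and -0.48 ± 1.30 (SD, n = 3), a change of 0.46 (SE 0.75) that turned to -0.28 without null pool 3. Thbd read -0.10, -0.45 and -0.49 in wild type and -0.77, -0.62 and 0.41 in null pools 1, 2 and 3. Here null pools 1 and 2 lay below every wild-type pool and null pool 3 above every one. Its change was 0.02 (SE 0.39), -0.34 without null pool 3, and its sign turned with median scaling and without wild-type pool 2 or 3. The null groups overlapped the wild-type groups for both genes.

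The distance of null pool 3 from the other null pools was large beside that of other genes. Procr stood 2.21 log2 units above the mean of null pools 1 and 2, and 0.184% of the genes tested stood as far or farther above. For the brightest Tfpi probe the distance was 1.44 (0.519% of genes) and for Thbd 1.10 (1.08% of genes). On the other Tfpi probes it was smaller, 1.03 and 0.96. For F3 the distance was -0.11, with 68.3% of genes standing as high or higher. Over the same pools, the summed signal of 11 endothelial and endocardial genes was 16.3, 16.5 and 18.1 in wild-type pools and 21.7, 18.9 and 18.3 in null pools 1, 2 and 3. Each null pool lay above each wild-type pool in this sum, with null pool 1 the highest and null pool 3 the lowest of the null pools. With the genes weighed alike, as their mean log2 shift from wild type, the groups overlapped. That shift was -0.18, 0.03 and 0.15 in wild-type pools 1, 2 and 3, and 0.26, 0.09 and -0.01 in null pools 1, 2 and 3. Of these 11 genes, 0 passed limma's test and 0 had an unadjusted p under 0.05. The parietal endoderm list, another embryonic membrane lineage, summed to 147 to 190 in wild type and to 176, 234 and 230 in null pools 1, 2 and 3. Of its 11 genes 4 were called higher (Fst, Lamb1, Sox7 and Srgn) and 7 did not pass. At an unadjusted limma p under 0.05 there were 6, of which 1 was lower in the null pools. These values stand beside the trophoblast sum given above, and the part of each of these lineages in the Procr, Thbd and Tfpi values was not tested.

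**Figure D2:**
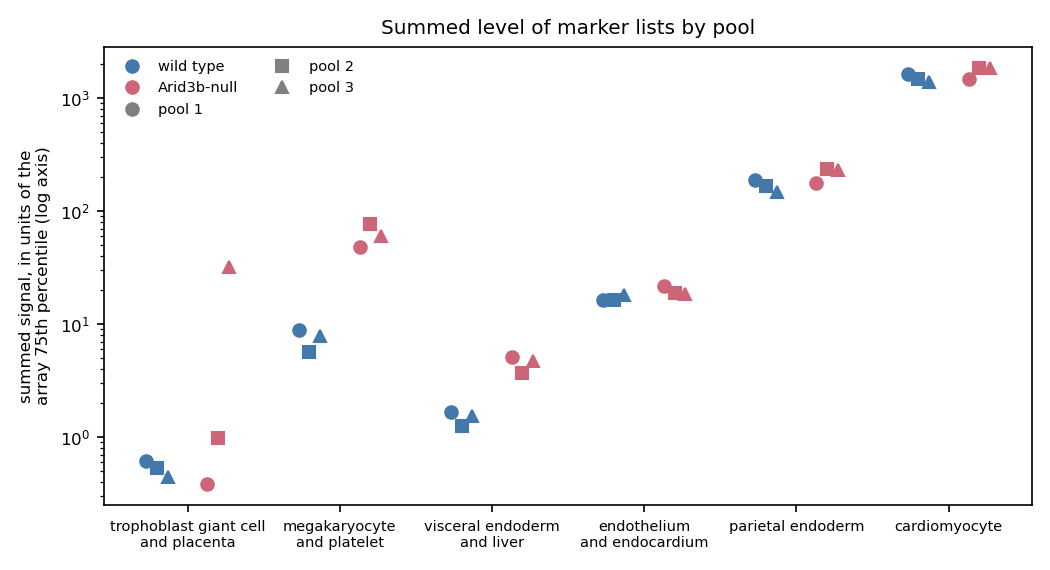
The vertical axis (log scale) gives the signal summed over each marker list in units of the array's 75th percentile, by pool. Trophoblast signal is 32.3 in null pool 3 and below 1 in all other pools, platelet signal is higher in every null pool, and endothelial signal lies between 16.3 and 21.7 in all 6.

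Tfpi2, the second Kunitz inhibitor of this family, was not well above background on any of the 6 arrays. Its only probe read -8.97, -7.51 and -7.75 in wild type and -8.81, -8.53 and -6.51 in null pools 1, 2 and 3, and no fold is given. The highest reading, again in null pool 3, lay below the lowest signal called well above background on that array, -5.87.

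The activators of plasminogen showed no separation of the groups. Plat read -1.70, -1.43 and -0.81 in wild-type pools 1, 2 and 3, and -0.17, -1.33 and -1.39 in null pools 1, 2 and 3. Null pool 1 was the highest of all pools, while the other null pools lay inside the wild-type range. The means were -1.32 ± 0.46 and -0.96 ± 0.69 (SD, n = 3), and the change of 0.35 (SE 0.48) became -0.04 without null pool 1. Within slides 1, 2 and 3 the Plat difference was 1.54, 0.10 and -0.58, so its sign differed between slides. Null pool 1 stood 1.19 above the mean of null pools 2 and 3, a distance that 1.05% of genes tested reached or passed. Its placental marker sum was the lowest of the null pools, 0.385, and its endothelial sum the highest of all pools, 21.7. The part of either tissue in the Plat values was not tested.

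Plau was near background. Its probe read -6.01, -6.60 and -5.97 in wild type and -6.28, -5.66 and -5.72 in null pools 1, 2 and 3, and was well above background on 4 of the 6 arrays, not on those of wild-type pool 2 and null pool 3. The change was 0.31 (SE 0.28), and the groups overlapped. Its receptor Plaur was clearly detected, at -1.72, -1.53 and -1.22 in wild type and -1.44, -1.97 and -1.97 in null pools 1, 2 and 3. Null pools 2 and 3 were the lowest of the 6 pools and null pool 1 lay inside the wild-type range. The change was -0.30 (SE 0.23), with 0.29, -0.44 and -0.75 within slides 1, 2 and 3.

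Serpine2 read -2.21, -2.04 and -1.62 in wild-type pools 1, 2 and 3, and -2.32, -2.06 and -2.61 in null pools 1, 2 and 3. Within slides 1, 2 and 3 the null minus wild-type difference was -0.11, -0.02 and -0.99, but null pool 2 lay above wild-type pool 1. The change of -0.37 (SE 0.24) came mostly from slide 3.

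**Figure D3:**
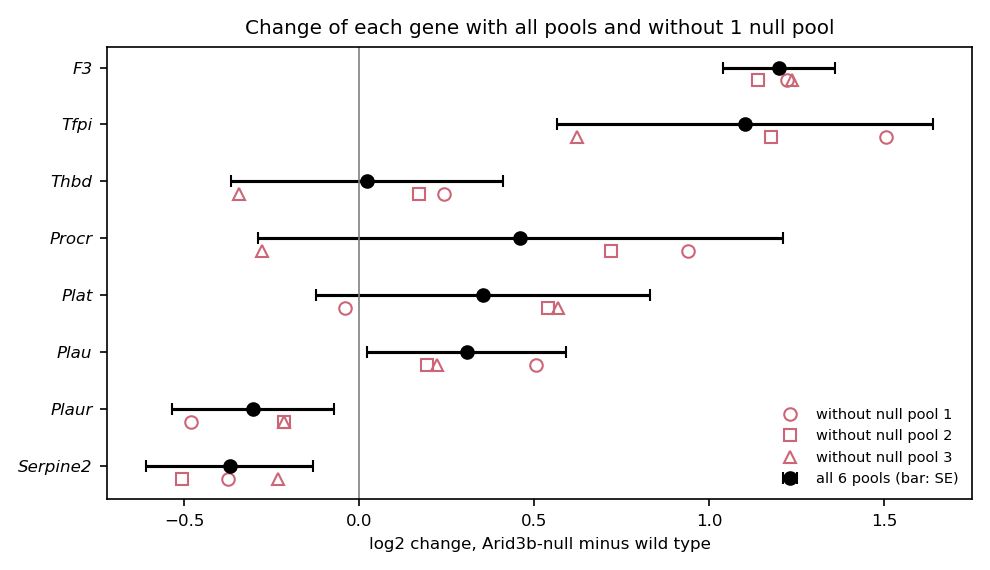
The horizontal axis is the log2 change, null minus wild type. Filled points with bars are the change ± SE over all 6 pools, and open symbols the change without 1 null pool. F3 stays between 1.14 and 1.24, Tfpi falls to 0.62 without null pool 3, and Procr and Thbd turn negative without that pool.

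In all, 2 of the 8 tested members, F3 and Tfpi, had groups without overlap, beside 32.9% of all genes. The median change of the 8 was 0.33, with 0.03 over all genes tested. The choice of the list used this contrast, so nothing is read from that count or that median. Spread between pools varied widely among them. The pooled within-group SD was 0.20 for F3, below the median of 0.26 over all genes, 0.28 to 0.35 for Plaur, Serpine2 and Plau, 0.48 for Thbd, 0.58 for Plat, 0.66 for Tfpi and 0.92 for Procr. That of Procr exceeded the SD of 98.5% of genes tested.

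The genes closest in profile over the 6 pools were found by the root mean square difference of centred log2 values. For F3 they were the cadherin gene Cdh16 (0.0618), Diras2, which encodes a small GTPase (0.0832), and the histone gene H3c15 (0.0877). For Tfpi they were the homeobox gene Hoxb7 (0.218), 3830417A13Rik (0.228) and Meltf (0.235). For Procr they were the placenta-associated gene Plac1 (0.258), the endocytic receptor Cubn (0.278) and the secreted protease Htra1 (0.283). Of the marker lists used here, Plac1 is on the trophoblast and placental list and Cubn on the visceral endoderm and liver list. Within a difference of 0.5 lay 21.3% of named genes for F3, 4.16% for Tfpi and 0.414% for Procr. These shares depend on that distance and on the spread of each gene between pools. Likeness over 6 pools says only that the pools are ordered and spaced alike.

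Other genes of the pathway were taken from 4 lists of 44 genes that hold none of the 9. Of these 44, 34 were tested. By limma at an adjusted p under 0.05, 7 rose in the null pools, 0 fell and 27 did not pass, beside 10.5% of all genes called. At an unadjusted p under 0.05 there were 14, of which 1 was lower. The median change was 0.50, against 0.03 over all genes. With median scaling the count was 6 higher and 1 lower (the plasminogen receptor Plgrkt, named after its value was seen). Without null pool 3 it was 9 higher and 0 lower, of which 6 were among the 7.

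Among 10 tested genes of fibrinolysis and plasminogen binding, 2 rose and 0 fell (1 of the lower values, that of Plgrkt, had an unadjusted p under 0.05). Anxa2, an annexin that holds plasminogen and its tissue-type activator at the cell surface, rose 2.92-fold, from 4.35 ± 0.15 to 5.89 ± 0.17 (SD, n = 3; limma adjusted p = 0.00273). Its partner S100a10 had a change of 0.50 (SE 0.35) and did not pass. Plg itself was too dim to be tested. The antiplasmin gene Serpinf2, named after its values were seen, read -4.60, -6.92 and -6.16 in wild type and -0.78, -1.58 and -4.57 in null pools 1, 2 and 3. All its null pools were higher, but in the order opposite to that of Tfpi, and it did not pass (limma adjusted p = 0.0637).

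Among 15 tested coagulation factors and vitamin K cycle genes, 3 rose and 0 fell (0 of the lower values had an unadjusted p under 0.05). F5, the cofactor of prothrombin cleavage, rose 5.22-fold (log2 2.38, SE 0.27, limma adjusted p = 0.00313), and its other probe gave 2.10. F13a1, the clot-crosslinking transglutaminase subunit, rose 3.70-fold (log2 1.89, SE 0.29, limma adjusted p = 0.00969). Its other probe gave 0.71 but was well above background on 0 arrays. Vwf, the platelet-tethering protein of endothelium and megakaryocytes, rose 3.07-fold, from 1.58 ± 0.37 to 3.20 ± 0.08 (SD, n = 3; limma adjusted p = 0.00566). F7, the ligand of tissue factor, read from -6.28 in the wild-type mean to -6.10 in the null mean and did not pass, with 1 of the 3 null arrays well above background.

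Of 3 tested protease-activated receptors 1 rose: F2rl2, a thrombin receptor of mouse platelets (limma adjusted p = 0.00989). Its probe read -8.32, -6.69 and -6.31 in wild type and -3.61, -4.04 and -4.23 in null pools 1, 2 and 3. Only 1 of the 3 wild-type arrays was well above background, so the probe was kept through the null group, where it is high, and the size of the rise is not fixed: 3.15 log2 units as fitted and 0.95 with normexp background correction. F2r, the thrombin receptor of the endocardium among other cells, had a change of 0.51 (SE 0.23) and did not pass. Of 6 tested circulating anticoagulants, 1 rose, Serpina10, a serpin that inhibits activated factor X, by 0.66 (SE 0.14, limma adjusted p = 0.0281). Its other probe gave 0.96 but was well above background on 0 arrays. The call of Serpina10 held under 2 of 14 alternatives, while the other 6 calls held under all that could be run. Pros1, the cofactor of activated protein C, had a change of 0.26 (SE 0.16) and the protein C gene Proc one of 0.30 (SE 0.31), and neither passed.

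Platelet transcripts, and some of the visceral endoderm and liver list, moved with the groups beside these genes. The summed signal of 13 megakaryocyte and platelet markers was 5.71 to 8.95 in wild-type pools and 48.3, 76.9 and 59.8 in null pools 1, 2 and 3, and all 13 rose. F5, F13a1, Vwf and F2rl2 are known products of megakaryocytes or platelets, and the part of those cells in their rise was not tested. For 11 visceral endoderm and liver markers with a probe the sum was 1.27 to 1.67 in wild type and 5.16, 3.69 and 4.75 in null pools. Of 8 tested, 3 rose (Afp, Hnf4a and Rbp4) and 5 did not pass. Of the cardiomyocyte markers 1 of 9 rose, the natriuretic peptide gene Nppa. Erythroid markers summed to 282 to 592 in wild type and to 766, 1199 and 780 in null pools. Of these 10 genes 1 was called higher (Gata1), 9 had an unadjusted p under 0.05, 0 of them lower, and the median change was 1.03. Macrophage markers summed to 1.495 to 3.78 and to 2.54, 4.23 and 5.40, with 2 of 9 called higher (Fcer1g and Laptm5) and 1 lower (Lyz1), and pharyngeal endoderm markers to 42.1 to 45.9 and to 80.1, 93.2 and 89.0, with 1 of 11 called higher (Krt18) and 1 lower (Nkx2-1). Krt18 was the brightest of these 11, at a mean of 5.07 in wild type and 6.16 in null, and so weighed most in that sum. The median change of the 11 was -0.03.

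**Figure D4:**
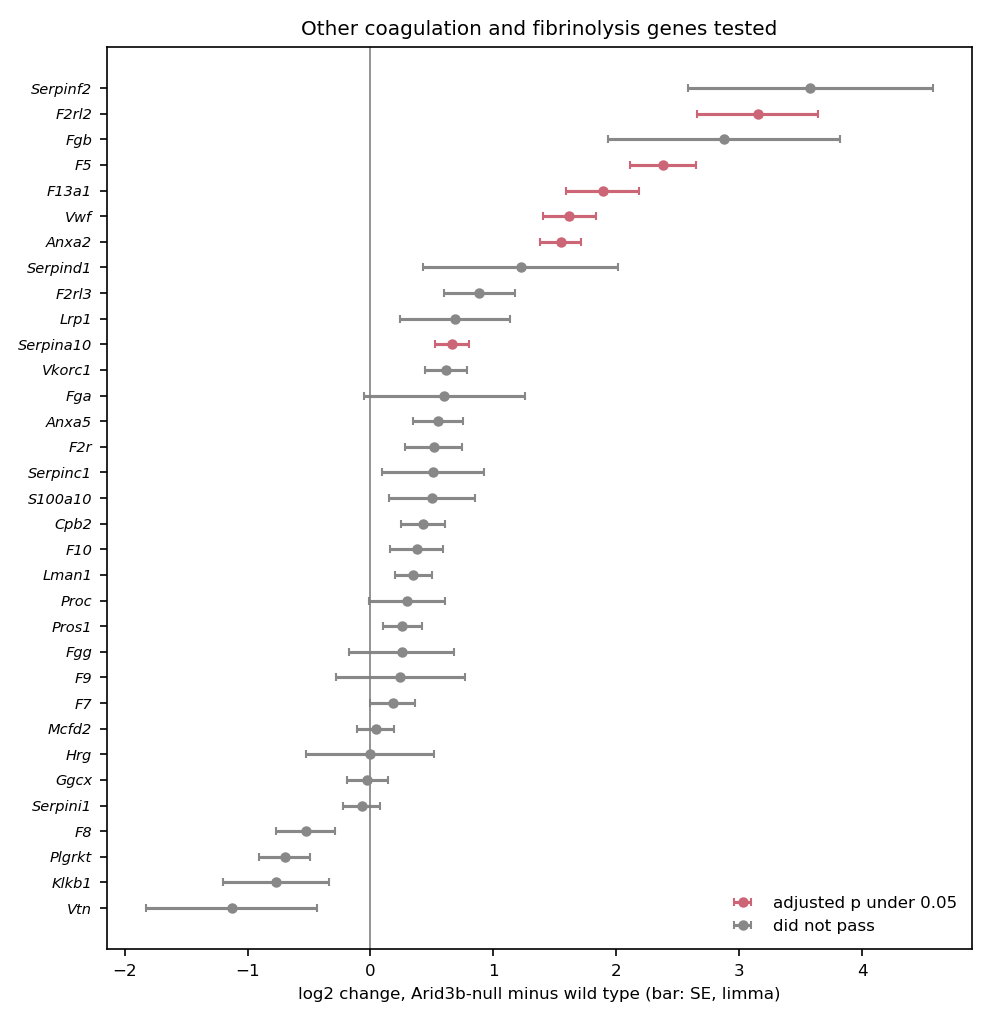
The horizontal axis is the log2 change, null minus wild type, with its limma SE, for 33 of the 34 tested genes of clotting and fibrinolysis outside the list of 9. Red points passed an adjusted p under 0.05 and grey points did not. Of the 33 points, 26 lie above 0, and the 6 that passed include F5 at 2.38 and Vwf at 1.62. The value of F2rl2 is set against a wild-type group well above background on 1 of 3 arrays.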

How the data were processed

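Total RNA of 6 pools was read on Agilent arrays of design 026655. Per the file headers, the deposited intensity values came from Feature Extraction 10.7.3.1 (Agilent), background-subtracted and not scaled between arrays. The deposited flags mark spots above background, saturated or outlying, per the file headers. The authors' deposited log2 value table (24158 non-control probes, column medians 6.77) was an alternative; its making is not stated in the sources used here, and it correlated with the scanner signal at 0.999 or more on each array, across probes.

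The log2 of the processed signal was taken relative to each array's 75th percentile, outlier spots were left out and spots of a probe averaged. Probes above background on at least 3 of 6 arrays were kept (26846 of 39429), and the brightest stood for a gene. Symbols came through RefSeq accessions in RefSeq's gene list for GRCm38.p6 (26424 probes matched); the headers name build mm9, so gene positions are not printed, and promoter windows carry the build of that list. All adjusted p values are from limma 3.58.1 (lmFit, eBayes; R 4.3.3), two-sided, Benjamini-Hochberg over all 21798 genes, called under 0.05. The fit recovered known shifts in simulated independent values. That simulation held no slide or pool effects, so it does not check the p-values of these arrays. SEs of the 9 genes are from the pools' SDs, all others from limma. Nothing in the labels says that pools came from separate litters, so p-values measure only the spread between these pools, whose number limits precision. 3 pools against 3 cannot go below 0.1 in an exact permutation test, and none was used.

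Members and lists were chosen with earlier results of these data known. Named genes were all 9 members, Arid3b, every called gene of the 4 pathway lists (1 of them, included in the counts, is not reported here), the 3 closest profiles to each of the 3 members with the largest change, and, of each marker list, the called genes and the 3 brightest, at most 4; of the markers, only called genes are named (platelet markers by count). Plgrkt, S100a10, Plg, Serpinf2, F7, F2r, Pros1, Proc and the placental markers were named after their values were seen. Same-numbered pools shared a slide, but their deviations from the group means correlated at -0.405, -0.0878 and -0.407, so they were not treated as pairs. The 14 alternatives were quantile normalization, median scaling, normexp with an offset of 50 (on the median spot signal, as no mean was used), no filter on dim probes, only probes above background on all 6 arrays, the mean of a gene's probes, the replicate number (slide) as a block, the authors' table and leaving out each of the 6 pools.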

Additional observations from a re-analysis of the deposited data

How the results depend on the processing

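Over the 14 alternatives F3 kept its sign with changes from 0.98 (mean of its probes) to 1.33 and Tfpi with 0.62 to 1.51. Serpine2 (-0.51 to -0.20), Plaur (-0.48 to -0.17) and Plau (0.10 to 0.50, 13 alternatives) also kept their signs. Plat turned to -0.04 without null pool 1 and Procr to -0.28 without null pool 3. Thbd turned in 4: with median scaling and on omitting wild-type pool 2 or 3 or null pool 3, ranging from -0.34 to 0.24. The number of genes called over the whole array, 2278, fell to 1037 with no filter on dim probes and to 742 with the replicate block, and ranged from 832 (without wild-type pool 2) to 1757 (without null pool 1) with 1 pool left out. Omitting wild-type pools 1 and 3 gave 1518 and 1091, and omitting null pools 2 and 3 gave 902 and 1106. With the replicate block 8 of the other coagulation and fibrinolysis genes passed, 6 of them shared with the 7. That count was 11 with normexp, and 6 to 9 with 1 pool left out. With normexp the changes of the dim genes F13a1, F2rl2 and F5 shrank to 0.89, 0.95 and 1.42, still past the threshold. Serpina10 lost its call in 12 alternatives (adjusted p up to 0.202). Signals near background, as for Plau and Tfpi2, limit what can be said of those genes.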
